A study of Mus musculus with 7 samples.

Results

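The genes described here encode the machinery that displays peptides from inside the cell on MHC class I molecules. The 10 genes were chosen by name and are the heavy chains H2-K1 and H2-D1, the light chain B2m, the peptide transporter subunits Tap1 and Tap2, the loading factor Tapbp, the immunoproteasome subunits Psmb8, Psmb9 and Psmb10, and the class I transactivator Nlrc5. All 10 were found among the 34792 gene names of the array, with 13 probes between them.

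A class I molecule is a heavy chain paired with beta-2 microglobulin and loaded with a short peptide in the endoplasmic reticulum. The peptides are cut in the cytosol by the proteasome, whose catalytic subunits can be replaced by immunoproteasome subunits, and are pumped in by the TAP1 and TAP2 transporter, which tapasin (Tapbp) bridges to the empty heavy chain. NLRC5 and interferon-induced factors are known to raise transcription of the whole pathway. In the heart, fetal myocardium and cardiomyocytes are known to display little class I, while stromal, endothelial and immune cells display more.

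Total RNA was measured on 7 single-colour mouse expression arrays. Postmortem cardiac mesenchymal progenitors (CMPs) were grown from atrial tissue (1 array) and ventricular tissue (1 array) that had been kept at 4 °C for 24 h after death, and living CMPs came from atrial (1 array) and ventricular (1 array) tissue of living adult animals. All CMPs were from adult mice of C57BL/6 background and were expanded on collagen I with serum and basic fibroblast growth factor. Adult heart was 1 array of purchased whole-heart RNA whose strain and age the labels do not give, and fetal heart was C57BL/6 heart of embryonic day 16.5, wild type on 1 array and C57BL/6-Tg(Myh6-EGFP)MG2 on the other, a line in which the Myh6 promoter drives EGFP in cardiomyocytes. The series names both kinds of heart RNA as positive controls.

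Levels are given as the log2 processed signal minus the 75th percentile of that array, so 1 unit is a 2-fold step and 0 is the 75th percentile. On each array 46.5% to 52.5% of probes were well above background, and the number of arrays limits the precision. The labels do not say whether the arrays came from separate cultures or animals, so the p-values measure only the spread between these samples. No condition was measured on more than 1 array, so no p-value rests on like replicates. The 2 residual degrees of freedom of the main fit have 2 sources. They are the wild-type against the transgenic fetal heart, and the change of the postmortem difference between atrial and ventricular CMPs. All CMP arrays lay in row 1 of the slide and all heart arrays in row 2, so slide row and the contrast of CMPs with heart cannot be told apart. The mesenchymal markers, 9 of 9, were well above background on every array, and Myh6, Actc1, Tnni3 and Pln of the cardiomyocyte markers were so on no CMP array. Of the 8 cardiomyocyte markers 1 to 4 passed that flag on any one CMP array, with Tnnt2 on all 4, Myl2 and Ryr2 on 2 each and Myh7 on 1. Tnnt2, a thin-filament protein of muscle, read 4.02 and 2.73 in postmortem atrial and ventricular CMPs and 4.10 and 0.11 in living ones. Leukocyte markers were well above background for 8 to 10 of 12 on the CMP arrays, with Emr1 and Aif1 on none of them, and for 12 of 12 on the heart arrays.

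CMPs stood far above fetal heart for nearly the whole pathway. Of the 9 genes that could be tested, 8 were higher in CMPs (limma, adjusted p under 0.05) and none lower, and 22.8% of all genes tested were called higher in the same comparison. The median difference of the 9 genes was 3.12 on the log2 scale, against -0.01 over all 20052 genes tested. In whole heart, fewer cells of a type and less RNA per cell cannot be told apart. Tap1 was measured on the CMP side only, and over the 8 genes well above background on all arrays of both sides 7 were higher, with a median of 2.98. All CMP arrays lay above both fetal arrays for 8 of the 9 genes tested, beside 30.1% of all genes tested, with Psmb10 as the exception. Markers of other cells moved in this comparison as well. Mesenchymal markers were higher in CMPs in 8 of 9, cardiomyocyte markers lower in 8 of 8, endothelial markers lower in 5 of 7, and leukocyte markers higher in 1 and lower in 7 of 12. Their part in the class I values was not tested. Over all genes 25.2% were called lower in CMPs.

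**Figure D1:**
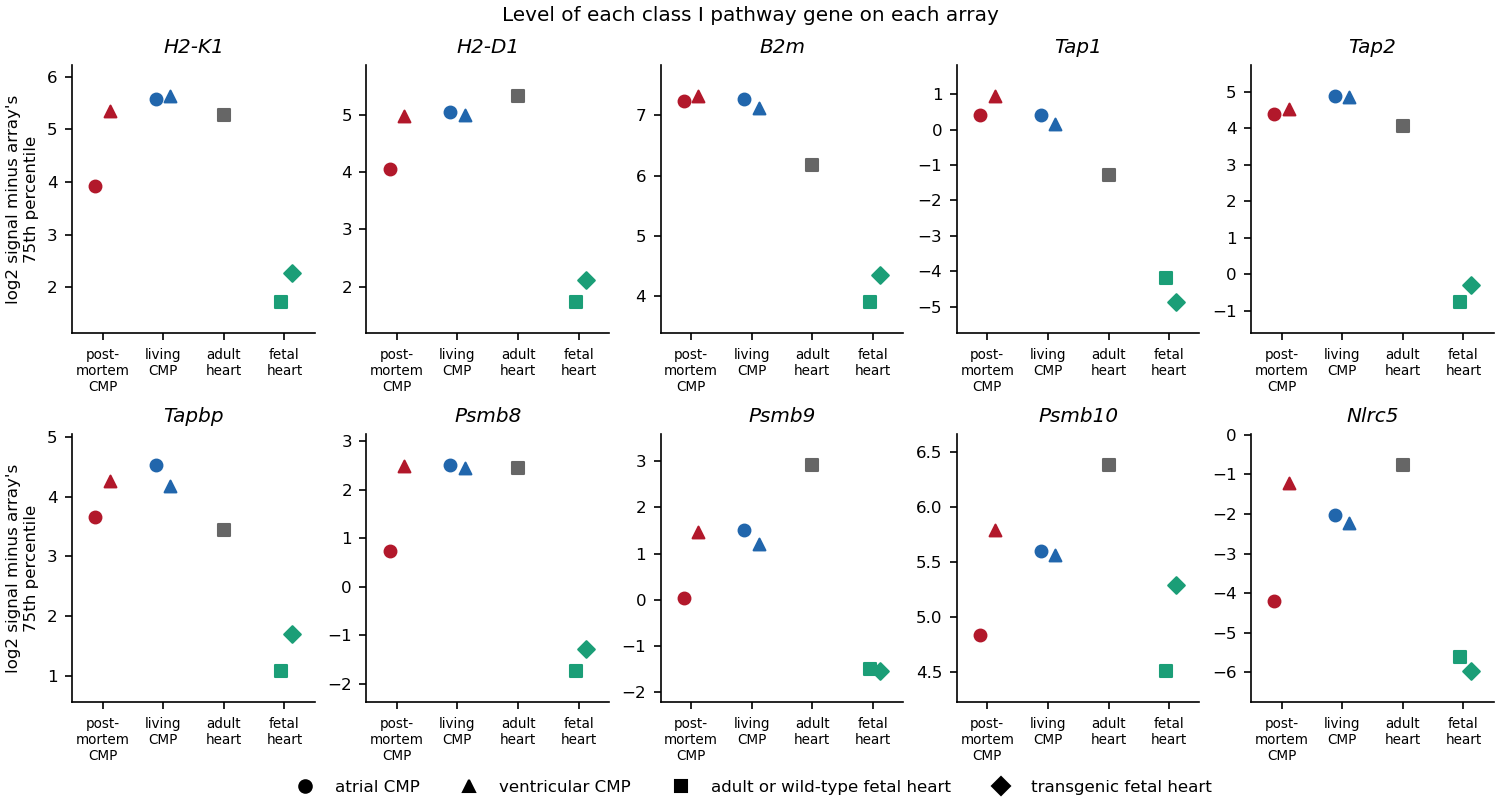
Level of each of the 10 genes on each array, as log2 processed signal minus the 75th percentile of the array (vertical axis, own scale per gene), for postmortem CMPs, living CMPs, adult heart and fetal heart. Circles are atrial and triangles ventricular CMPs. Both fetal hearts lie below all other arrays for every gene but Psmb10, and the postmortem atrial array is the lowest CMP array for 8 genes. Tap1 on both fetal arrays, and Nlrc5 on these and the postmortem atrial array, were not well above background.

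The heavy chain H2-K1, one of the classical peptide-presenting molecules, had levels of 3.93 and 5.35 in postmortem atrial and ventricular CMPs and of 5.58 and 5.63 in living atrial and ventricular CMPs, against 1.71 and 2.26 in wild-type and transgenic fetal heart. Every CMP array lay above both fetal arrays. The difference was 3.14 ± 0.32 (SE), an 8.81-fold higher signal in CMPs (adjusted p = 0.00109 in limma). Its probe was spotted 10 times on each array, and the SD over these spots was 0.05 to 0.07. A second H2-K1 probe read 4.22 to 4.76 over the CMP arrays and 0.83 and 1.00 in fetal heart.

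H2-D1, the other classical heavy chain measured, had levels of 4.05 and 4.99 in postmortem atrial and ventricular CMPs and of 5.05 and 4.99 in living ones, against 1.73 and 2.12 in fetal heart. The groups did not overlap, and the difference was 2.85 ± 0.25 (adjusted p = 0.000699 in limma). B2m, the shared light chain that every class I heavy chain needs to fold, read 7.24 and 7.32 in atrial and ventricular postmortem CMPs and 7.27 and 7.12 in living ones, against 3.89 and 4.35 in fetal heart. It was the steadiest of the 10 genes over the CMP arrays, with a range of 0.20, which is smaller than the range of all but 9.07% of the genes well above background on them. The difference of B2m from fetal heart was 3.12 ± 0.19 (adjusted p = 0.000271 in limma).

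The probes of these 3 genes lie at chr17:34133055-34133114 (minus strand) for H2-K1, chr17:35403886-35403945 (plus strand) for H2-D1 and chr2:121978401-121978460 (plus strand) for B2m, in mouse build mm9. H2-K1 and H2-D1 sit in the MHC on chromosome 17 and B2m sits on chromosome 2, yet their upstream sequences carry the same arrangement of motifs, which is why they are shown. The sequences are from RefSeq on GRCm38.p6, 5′ to 3′ on the strand of the gene, and capitals mark the motifs searched. They cover chr17:34000349-34000468 (minus) for H2-K1, chr17:35262913-35263055 (plus) for H2-D1, chr2:122147538-122147648 (plus) for B2m and chr17:34187331-34187484 (plus) for the stretch between Tap1 and Psmb9.
H2-K1: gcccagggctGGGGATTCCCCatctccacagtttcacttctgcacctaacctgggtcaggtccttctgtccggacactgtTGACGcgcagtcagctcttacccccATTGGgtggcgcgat
H2-D1: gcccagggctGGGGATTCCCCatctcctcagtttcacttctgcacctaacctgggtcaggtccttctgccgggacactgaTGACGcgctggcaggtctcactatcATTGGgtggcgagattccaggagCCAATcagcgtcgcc
B2m: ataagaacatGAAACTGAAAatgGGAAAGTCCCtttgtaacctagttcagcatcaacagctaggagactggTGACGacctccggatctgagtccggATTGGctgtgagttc
Tap1: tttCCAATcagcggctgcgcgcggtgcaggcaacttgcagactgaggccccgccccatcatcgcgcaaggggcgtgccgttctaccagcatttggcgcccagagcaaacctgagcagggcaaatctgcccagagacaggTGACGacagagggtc

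The motifs were searched on both strands in windows of 300 bases, 250 of them before the start, and 8 of the 10 genes had such a window, Tap2 and Nlrc5 having none in the table used. The X2 box core TGACG, known to be bound by CREB and ATF factors, was in 5 of the 8 windows and in 21.0% of all 27025 windows. The Y box ATTGG, known to be bound by NF-Y, was in 6 of the 8 and in 37.9% of all windows. The Tap1 and Psmb9 windows share 275 of their 300 bases and hold the same X2 core and Y box. Both counts therefore include these shared sites once for each gene. In H2-K1, H2-D1 and B2m the Y box began 25 bases after the X2 core on the same strand. That spacing, noticed in these windows and then counted, occurred in 26 of 27025 windows, or 0.0962%. X and Y boxes at a fixed distance are known as the platform on which RFX, CREB, NF-Y and NLRC5 assemble at class I genes.

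The kappa B consensus was in the windows of H2-K1, H2-D1 and B2m and in 8.18% of all windows, and in H2-K1 and H2-D1 it matched at 2 starts 1 base apart and on both strands, so these matches overlap. The interferon response element GAAANNGAAA was in the B2m window and in 3.49% of all windows. The interferon-gamma element TTCNNNGAA was in the Psmb8 window and in 8.47% of all windows. Some windows also held a match past the start or a second Y box. Such matches describe the letters of the window and are not evidence of binding.

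The TAP transporter showed the largest differences of the pathway from fetal heart among the genes tested. Tap2 had levels of 4.39 and 4.52 in postmortem atrial and ventricular CMPs and of 4.88 and 4.87 in living ones, against -0.76 and -0.29 in fetal heart. All CMP arrays lay more than 4 units above both fetal arrays. The difference of 5.19 ± 0.18 is 36.6-fold, rank 160 of the 20052 genes tested (adjusted p = 9.25e-05 in limma).

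Tap1 had levels of 0.41 and 0.95 in postmortem atrial and ventricular CMPs and of 0.43 and 0.17 in living ones, against -4.20 and -4.88 in fetal heart, where it was not well above background on either array. Its SD over 10 spots was 0.06 to 0.07 on the CMP arrays and 0.21 and 0.46 on the fetal arrays. Since the fetal side has only a bound, Tap1 was at least 24.4-fold higher in CMPs (adjusted p = 0.000329 in limma). This bound sets the mean of the bright group against, per dim array, whichever is higher of its own signal and the weakest signal that passed the background flag. An adjusted p printed beside a bound, here and below, is that of the fitted difference, which uses the dim readings as measured. The bound itself was not tested. Tapbp, which encodes tapasin, had levels of 3.66 and 4.27 in postmortem atrial and ventricular CMPs and of 4.53 and 4.18 in living ones, against 1.08 and 1.70 in fetal heart. The groups did not overlap, and the difference was 2.77 ± 0.27 (adjusted p = 0.00102 in limma).

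Of the immunoproteasome subunits, Psmb8 and Psmb9 were called higher in CMPs and Psmb10 was not. Psmb8 had levels of 0.73 and 2.49 in postmortem atrial and ventricular CMPs and of 2.51 and 2.45 in living ones, against -1.73 and -1.29 in fetal heart. The difference was 3.55 ± 0.39, 11.7-fold (adjusted p = 0.00139 in limma). Psmb9 had levels of 0.03 and 1.47 in postmortem CMPs, atrial and ventricular, and of 1.50 and 1.20 in living ones, against -1.49 and -1.55 in fetal heart. It was 5.94-fold higher in CMPs, a difference of 2.57 ± 0.37 (adjusted p = 0.00327 in limma). A second Psmb9 probe was well above background on 1 array only, living ventricular CMPs, at -2.74.

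Psmb10 had levels of 4.84 and 5.80 in postmortem atrial and ventricular CMPs and of 5.60 and 5.57 in living ones, against 4.51 and 5.29 in fetal heart. The transgenic fetal array lay above the postmortem atrial CMP array. The difference of 0.55 ± 0.30 did not pass the test (adjusted p = 0.193 in limma). With the chamber term, leaving out the postmortem atrial or the living ventricular array gives the same estimate, 0.80. In it only the postmortem ventricular and living atrial arrays stand for the CMPs. Leaving out either of these instead gives 0.30, which rests on the postmortem atrial and living ventricular arrays. The Psmb10 difference was 0.16 without the wild-type fetal array and 0.94 without the transgenic one. Psmb10 and Nlrc5 lie on chromosome 8 in mm9, at chr8:108459677-108459736 (minus strand) and chr8:97051105-97051164 (plus strand). The probes of Psmb8, Psmb9, Tap1 and Tap2 lie together on chromosome 17, from 34319174 to 34353175 in mm9.

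Nlrc5, which binds class I promoters as a transactivator, had levels of -4.20 and -1.23 in postmortem atrial and ventricular CMPs and of -2.01 and -2.24 in living ones, against -5.60 and -5.96 in fetal heart. It was not well above background on the postmortem atrial array or on either fetal array, so it was not tested here. Its mean was -2.42 over the 4 CMP arrays, with 3 of 4 measuring it, against -5.78 in fetal heart. No fold is given, since both sides hold arrays where it was not well above background. Its second probe was too dim for that flag on all 7 arrays.

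The constitutive proteasome core and its activators gave no call in that direction. The constitutive counterparts are Psmb5 for Psmb8, Psmb6 for Psmb9 and Psmb7 for Psmb10, and all 3 were lower in CMPs than in fetal heart, by -0.68 ± 0.18, -0.86 ± 0.18 and -0.80 ± 0.14 (adjusted p = 0.0279, 0.0126 and 0.00591 in limma). Psmb5 is named as the counterpart of Psmb8, after its values were seen. Over the 19 genes of the constitutive core and its activators, 0 were called higher and 8 lower, with 11 not called, where 25.2% of all genes tested were called lower. The median was -0.52, and the lowest was the activator Psme3 at -1.05 ± 0.15.

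**Figure D2:**
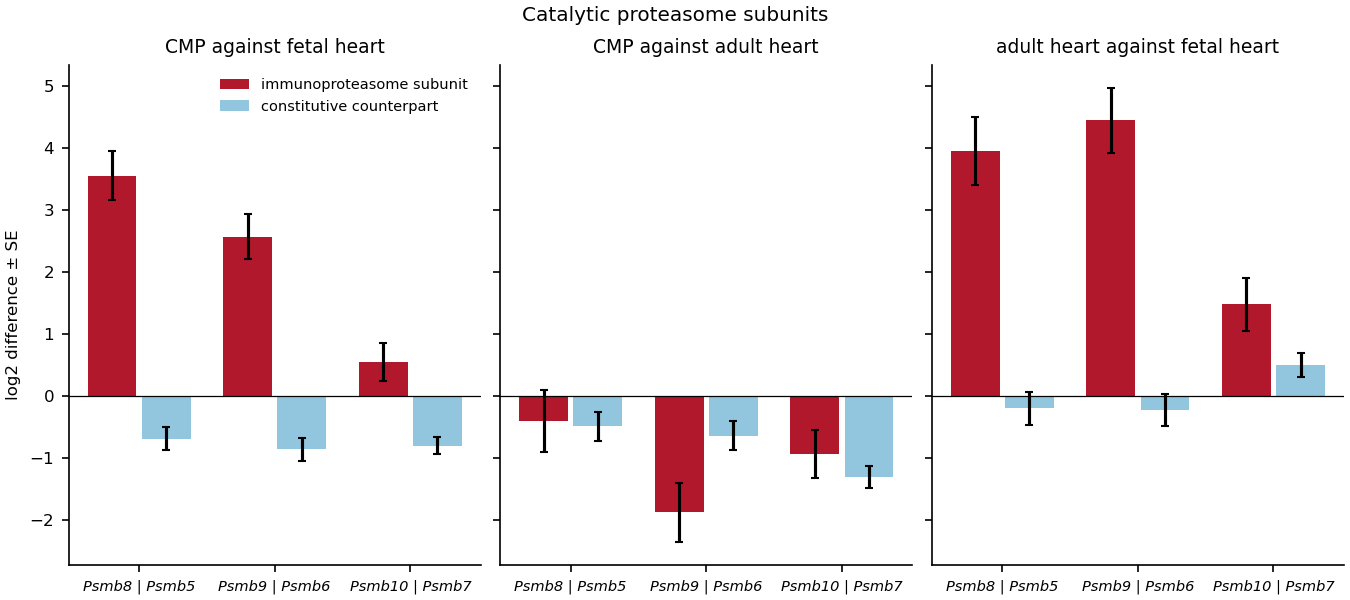
Log2 difference (vertical axis, with its SE) of the 3 immunoproteasome subunits and their constitutive counterparts in the comparisons of CMPs with fetal heart, CMPs with adult heart and adult with fetal heart. Against fetal heart the immunoproteasome bars are positive in CMPs, with Psmb10 at 0.55, while the 3 constitutive bars are below 0.

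The other heavy chain genes, 26 listed and 22 on the array, were mostly higher in CMPs than in fetal heart too. Of the 18 tested, 14 were called higher in CMPs and 1 lower, with a median of 2.94. The largest differences were in H2-M3, which presents formylated peptides, at 4.29 ± 0.24, in H2-T23, the Qa-1 heavy chain that ligates NK cell receptors, at 4.22 ± 0.14, and in H2-Q10 at 4.12 ± 0.20. The lipid-presenting Cd1d1 was lower by -1.60 ± 0.37. Over all genes 22.8% were called higher in this comparison and 25.2% lower. Of the 10 loading and trimming partners 5 were called higher and 0 lower, led by Tapbpl (a tapasin homologue, 1.73 ± 0.25), Bcap31 (1.38 ± 0.15) and Pdia3 (the ERp57 of the loading complex, 1.03 ± 0.14).

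Of 24 regulators of class I transcription tested, 13 were called higher in CMPs than in fetal heart and 5 lower, where 25.2% of all genes were called lower. Irf7, the master factor of type I interferon induction, was not well above background in fetal heart and was at least 52.7-fold higher in CMPs (adjusted p = 0.000613 in limma). Irf9 and Stat2, parts of the complex that acts at interferon response elements, were higher by 3.22 ± 0.17 and 3.16 ± 0.33. Irf8, a factor of myeloid cells, was lower by -2.36 ± 0.51, and so were Nfyc (-1.44 ± 0.15) and Rfxap (-1.41 ± 0.27), subunits of NF-Y and RFX. Of 6 class II genes tested against fetal heart 2 were called higher in CMPs and 2 lower, with a median of -1.36. Over all genes 22.8% were called higher and 25.2% lower.

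Against adult heart the pathway was mixed. Of the 10 genes 2 were called higher in CMPs, where 24.6% of all genes tested were called higher, and 1 was called lower, where 24.6% were called lower. Neither count exceeds its background share. The median difference of the 10 genes was -0.28, against 0.00 over all 20278 genes. The adult group is 1 array, which is assumed to vary like the other groups.

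B2m read 7.12 to 7.32 over the CMP arrays, against 6.18 in adult heart, and no CMP array was as low as the adult one. It was higher in CMPs by 1.06 ± 0.24, 2.08-fold (adjusted p = 0.0165 in limma). Tap1 was higher in CMPs by 1.78 ± 0.43, 3.42-fold, since it stood at -1.29 in adult heart (adjusted p = 0.0189 in limma). Psmb9 stood at 2.92 in adult heart, above every CMP array, and was lower in CMPs by -1.87 ± 0.48, 3.66-fold (adjusted p = 0.0228 in limma). That call was lost without either fetal array (adjusted p = 0.0580 each), with only the compared groups fitted (0.0569) and with the mean of both Psmb9 probes (-0.89, adjusted p = 0.158).

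Tap1 and Psmb9, called in opposite directions here, are neighbours that are read away from each other. Their starts in RefSeq lie 226 bases apart, so their windows share 275 of 300 bases, and the stretch printed above for Tap1 lies between the starts. Counted from the Tap1 start, it holds an X2 core at base -86 and a Y box at base -222.

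The remaining 7 genes did not pass the test against adult heart. H2-K1 differed by -0.15 ± 0.41, and its adult level of 5.28 fell within the range of the CMP arrays. H2-D1 stood at 5.32 in adult heart, above all CMP arrays, with a difference of -0.56 ± 0.32. Tap2 (4.07 in adult heart) differed by 0.59 ± 0.24 and Tapbp (3.44) by 0.72 ± 0.35. Without the postmortem atrial array, or without the living ventricular one, Tapbp was called higher at 0.96 (adjusted p = 0.00896 and 0.00911 in limma), where 47.7% and 47.6% of all genes were called in either direction. Tap2 was called higher at an unchanged 0.59 without either fetal array (adjusted p = 0.0381 and 0.0385) and with only the compared groups fitted (0.0341), and at 0.71 with normexp background correction (0.0386).

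Psmb8 stood at 2.44 in adult heart, within the CMP range, with a difference of -0.40 ± 0.50. Psmb10 stood at 6.38 and Nlrc5 at -0.76 in adult heart, above all CMP arrays, with differences of -0.93 ± 0.39 and -1.66 ± 0.87. The Nlrc5 value includes the postmortem atrial array, where it was not well above background, and with the mean of both Nlrc5 probes it was called lower at -1.42 (adjusted p = 0.0469 in limma). Without the postmortem ventricular array, or without the living atrial one, 4 genes were called lower, where 48.3% and 48.2% of all genes were called in either direction. These were Psmb9, H2-D1 at -0.80 (adjusted p = 0.0347 and 0.0345), Psmb10 at -1.18 (0.00447 and 0.00450) and Nlrc5 at -2.46 (0.00253 and 0.00212 in limma).

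**Figure D3:**
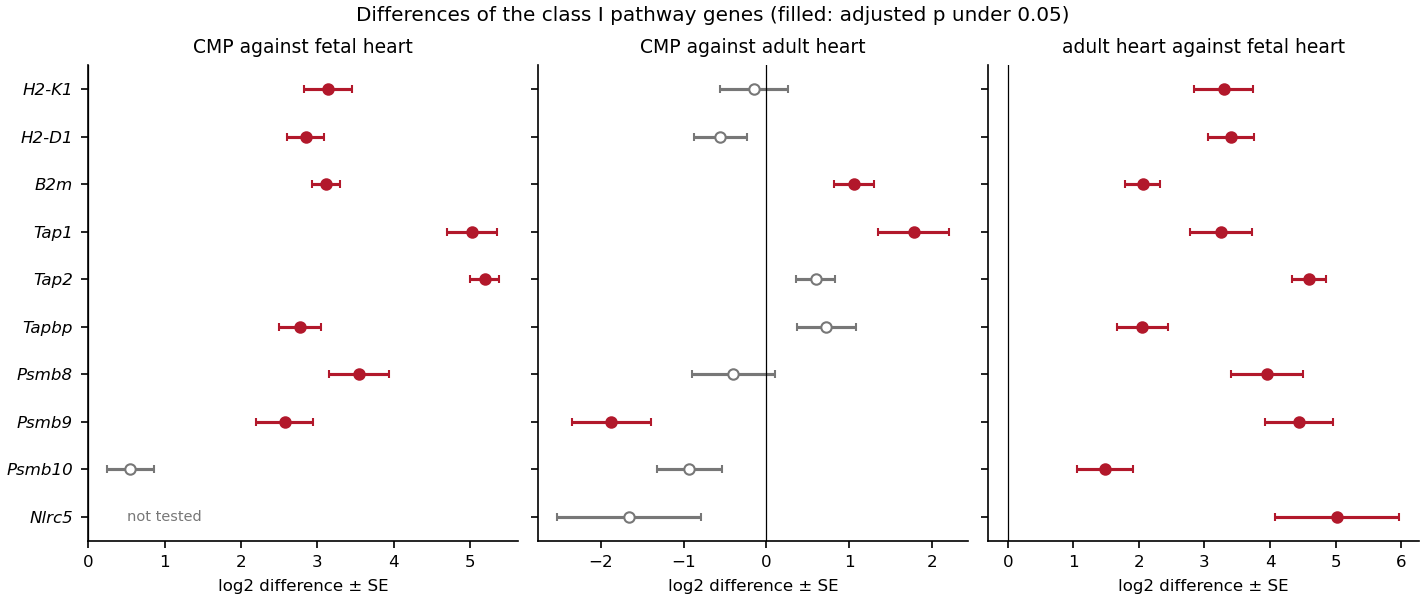
Log2 difference with its SE (horizontal axis) of each of the 10 genes for CMPs against fetal heart, CMPs against adult heart and adult heart against fetal heart. Filled points have an adjusted p under 0.05. All filled points in the left and right panels are positive, and the middle panel has B2m and Tap1 to the right of 0 and Psmb9 to the left.

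Class II genes, which serve professional antigen-presenting cells, did not follow class I in this comparison. Of 6 class II genes tested against adult heart 0 were called higher and 5 lower in CMPs, with a median of -6.08. H2-Eb1 and H2-Ab1, both class II beta chains, were lower by -6.93 ± 0.45 and -6.82 ± 0.79, and the invariant chain Cd74, well above background on 1 of 4 CMP arrays, was at least 187-fold lower. Leukocyte markers differed alike, with 0 of 12 called higher and 10 lower in CMPs. Their summed linear level, relative to the 75th percentile, was 49.0 to 73.0 over the CMP arrays and 142 in adult heart, and their mean log2 level was -2.03 to -1.08 in CMPs and 2.24 in adult heart. The sum in CMPs was carried by Itgam, an integrin chain, which read 5.44 to 6.01 there and 5.44 in adult heart. Their part in the class I result was not tested. Beside the counts of both lists, 24.6% of all genes were called lower in CMPs.

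Against adult heart 4 of 18 other heavy chain genes were called higher and 3 lower, where 24.6% of all genes were called in each direction. Neither count exceeds that share. H2-Q8, H2-Bl and H2-T24 were lower in CMPs, by -2.24 ± 0.36, -2.22 ± 0.44 and -1.96 ± 0.46. Mr1, which presents vitamin metabolites, H2-T10 and H2-M2 were higher, by 1.50 ± 0.45, 1.26 ± 0.27 and 0.70 ± 0.23. Among the loading partners 4 of 10 were called higher and 1 lower, beside the same 24.6% in each direction. Pdia3 (2.52 ± 0.18), Bcap31 (1.50 ± 0.20) and the chaperone calreticulin, Calr (1.30 ± 0.23), were higher, and the trimming peptidase Lnpep was lower (-1.17 ± 0.30).

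Of the constitutive proteasome core and its activators 0 of 19 genes were called higher and 5 lower in CMPs than in adult heart. Over all genes 24.6% were called lower. The lowest were the activator Psme1 at -1.35 ± 0.32, Psmb7 at -1.30 ± 0.18 and the activator Psme4 at -1.08 ± 0.25. Among the regulators 8 of 24 were called higher and 5 lower, beside 24.6% of all genes in each direction. The signalling suppressor Socs1 (2.01 ± 0.25), the interferon receptor chain Ifnar1 (1.83 ± 0.22) and Stat2 (1.81 ± 0.43) were higher. Irf8 (-3.45 ± 0.66), the RFX subunit Rfxank (-2.67 ± 0.23) and the interferon-gamma receptor chain Ifngr2 (-1.52 ± 0.30) were lower.

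Adult heart stood above fetal heart for the pathway. All 10 genes were called higher, where 18.8% of all genes tested were called higher, and their median difference was 3.35 against 0.09 over all 20946 genes. Tap1 and Nlrc5 were measured on the adult side only, and the 8 genes measured on both sides were all called, again with a median of 3.35. Both comparisons of fetal heart use the same 2 fetal arrays. The heavy chains were higher in adult heart by 3.29 ± 0.45 for H2-K1 and 3.40 ± 0.35 for H2-D1, and B2m by 2.06 ± 0.27 (adjusted p = 0.00514, 0.00235 and 0.00449 in limma).

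Tap2 was higher in adult heart by 4.60 ± 0.26, Tap1 was at least 7.13-fold higher and Tapbp was higher by 2.05 ± 0.39 (adjusted p = 0.000619, 0.00597 and 0.0128 in limma). Psmb9 was higher by 4.44 ± 0.52 and Psmb8 by 3.95 ± 0.55, which are 21.8-fold and 15.5-fold. Nlrc5 was at least 11.8-fold higher in adult heart (adjusted p = 0.0128 in limma), and this call was lost without the wild-type or the transgenic fetal array (adjusted p = 0.0510 and 0.0520). Psmb10 had the smallest difference, 1.48 ± 0.43 (adjusted p = 0.0439), and its call was lost without the wild-type fetal array (1.09, adjusted p = 0.113), with quantile normalization (0.0574), with a robust prior (0.0506), without a trend in the prior (0.0853) and without the chamber term (0.0541).

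The same comparison called 15 of 18 other heavy chain genes higher in adult heart and 1 lower, with H2-Bl at 5.16 ± 0.48, H2-M3 at 4.38 ± 0.35 and H2-T23 at 4.35 ± 0.19, and with Cd1d1 at -2.30 ± 0.52. Class II genes were called higher in 5 of 7, with H2-Eb1 at 5.86 ± 0.50, Cd74 at 5.78 ± 0.55 and H2-Aa at least 11.2-fold higher. Of the leukocyte markers 5 of 12 were called higher and 0 lower, led by Lyz2 at 4.49 ± 0.35, and their summed level was 142 in adult heart and 41.3 and 46.8 in fetal heart, with mean log2 levels of 2.24 and of 0.40 and 0.50. Their part in the class I difference was not tested. Beside these counts, 18.8% of all genes were called higher in adult heart and 18.2% lower. Of the constitutive proteasome core and its activators 0 of 19 genes were called (limma) and 3 had an unadjusted p under 0.05. The smallest p-values were those of the activator Psme4 at 0.88 ± 0.27 and of Psma5 at -0.58 ± 0.20.

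Regulators were called higher in adult heart in 8 of 24 and lower in 4, where 18.8% and 18.2% of all genes were. Irf7 was at least 17.5-fold higher, Irf1, a first-line activator of class I promoters, was higher by 1.92 ± 0.29, and Ifngr2 by 1.73 ± 0.33. Ifnar1 (-1.65 ± 0.24), the NF-Y subunit Nfya (-1.52 ± 0.30) and Socs1 (-1.44 ± 0.27) were lower. Among the loading partners Lnpep (2.15 ± 0.33) and Tapbpl (1.60 ± 0.36) were higher and Pdia3 (-1.48 ± 0.20) was lower, with the other 7 of 10 not called.

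**Figure D4:**
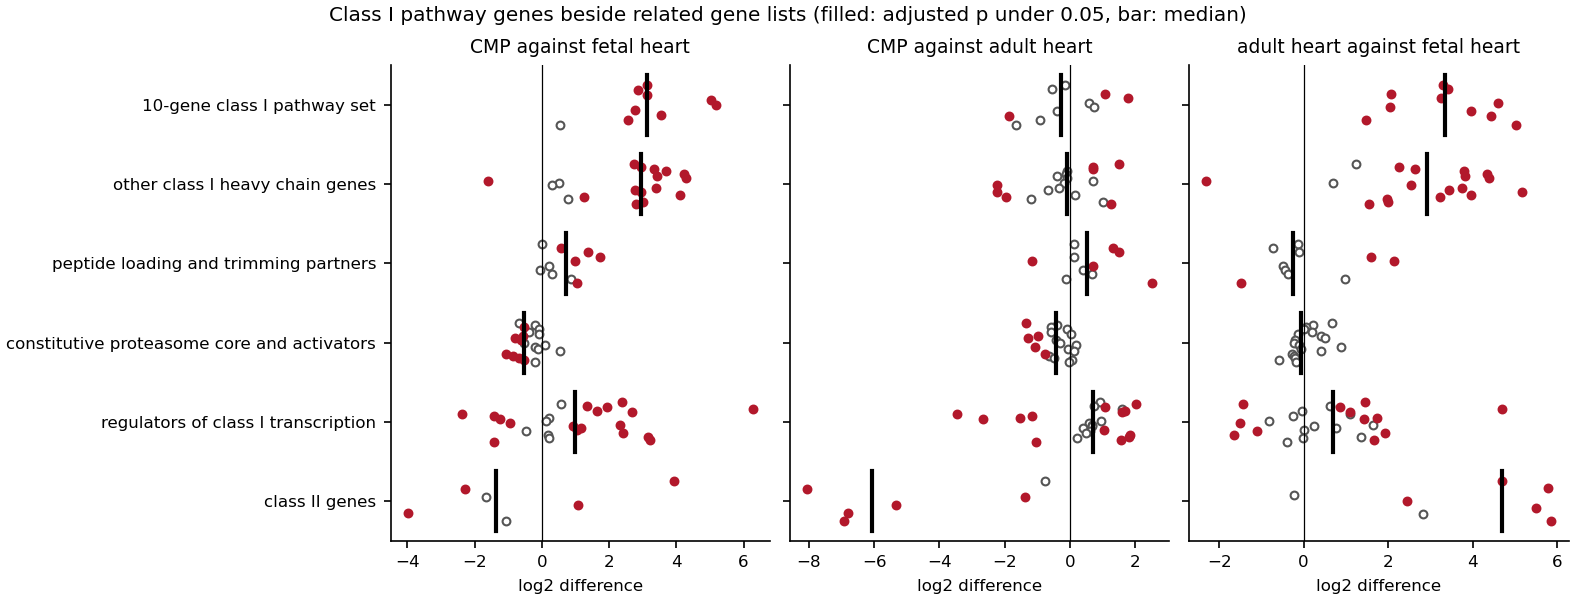
Log2 difference (horizontal axis) of each tested gene of the 10-gene class I set and of 5 related lists, in 3 comparisons. Filled points have an adjusted p under 0.05 and the bar is the median. Fitted values are drawn also for genes whose dim side has only a bound. Class II genes have a median of -6.08 in CMPs against adult heart, where the 10 class I genes have one of -0.28.

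Between postmortem and living CMPs none of the 10 genes was called. Over all genes the comparison called 0.105%, that is 20 of 19011, and 2100 had an unadjusted p under 0.05. Of the 10 genes 8 were lower and 2 higher, with a median of -0.46 against 0.01 over all genes. H2-K1 was the only one with an unadjusted p under 0.05, at -0.97 ± 0.37 (adjusted p = 0.432 in limma). For H2-K1, H2-D1 and Tap2 both living arrays lay above both postmortem arrays, which is 3 of 10 beside 20.1% of all genes.

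Within the atrial pair all 10 genes were lower in the postmortem array, with a median of -0.93, while 45.0% of all genes were lower there and their median was 0.06. At least 2-fold lower were 4 of the 10, beside 10.6% of all genes. These were Psmb8 at -1.78, H2-K1 at -1.65, Psmb9 at -1.48 and Nlrc5, which was not well above background on the postmortem array and so was at least 4.34-fold lower. H2-D1 (-0.99), Tapbp (-0.87), Psmb10 (-0.76) and Tap2 (-0.49) were lower by less, and the values of B2m and Tap1 were -0.03 and -0.01.

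Within the ventricular pair 3 of the 10 were lower in the postmortem array, the median was 0.14, and 0 were at least 2-fold lower, beside 4.97% of all genes. Nlrc5 was 1.01 and Tap1 0.78 higher there. Each pair has 1 array a side, so these values have no replicate check.

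**Figure D5:**
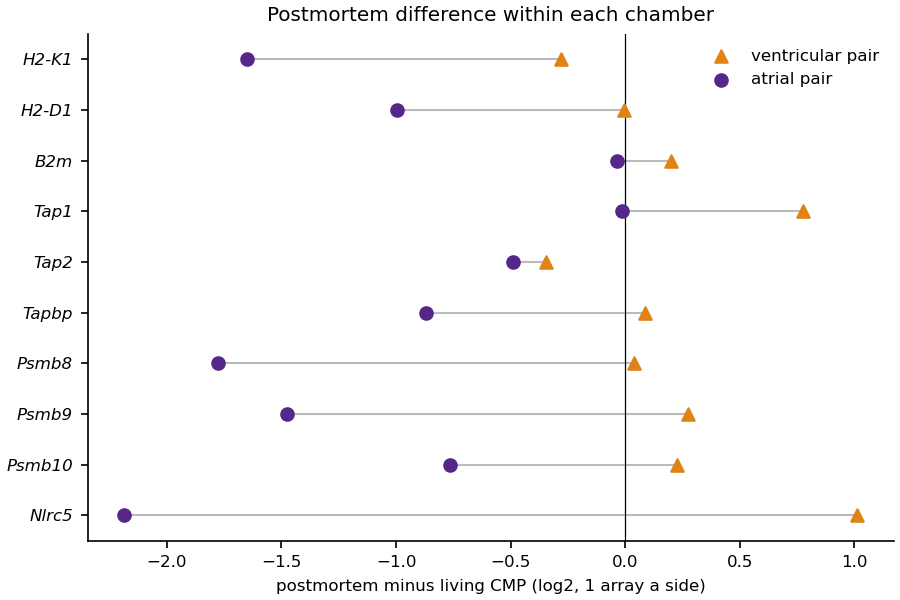
Postmortem minus living CMP level (log2, horizontal axis) of each of the 10 genes within the atrial pair (circles) and within the ventricular pair (triangles), 1 array a side. All circles lie below 0, and the Nlrc5 circle, at -2.19, rests on a postmortem atrial array where Nlrc5 was not well above background, while the triangles lie between -0.34 and 1.01.

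The test of that dependence on chamber called none of the 10 genes, where 2.41% of all genes, 458 of 19011, were called and 1333 had an unadjusted p under 0.05. With quantile normalization no gene was called in this test. All 10 differences between the pairs were positive, ventricular minus atrial, as were 44.7% of those of all genes, and 4 had an unadjusted p under 0.05. They were 3.20 ± 1.06 for Nlrc5, 1.81 ± 0.62 for Psmb8, 1.75 ± 0.67 for Psmb9 and 1.37 ± 0.55 for H2-K1 (adjusted p = 0.0859, 0.111, 0.219 and 0.276 in limma), the Nlrc5 value again with its unmeasured postmortem atrial array. The residual spread of this fit came from the fetal pair alone, a wild-type and a transgenic heart. Dependence on chamber and a single unlike CMP culture cannot be told apart here. Among the regulators Irf8 was called, at 2.51 ± 0.77 (adjusted p = 0.0477 in limma), with levels of -2.99 and -0.95 in postmortem atrial and ventricular CMPs and of -0.86 and -1.33 in living ones. Among class II genes H2-Ab1 was called in the other direction, at -2.73 ± 0.69.

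The values turn on the postmortem atrial array, which was the lowest CMP array for 8 of the 10 genes and for 32.5% of the 17514 genes well above background on all 4. The range of the 10 genes over the CMP arrays had a median of 0.98, against 0.53 for those genes. Over the other 3 CMP arrays the medians were 0.29 and 0.34. Without the postmortem ventricular array the comparison rests on the atrial pair, and H2-K1, Psmb8 and Psmb9 were called lower (adjusted p = 0.000575, 0.00163 and 0.0248 in limma). The same 3 genes were called lower without the living ventricular array (adjusted p = 0.000553, 0.00177 and 0.0252 in limma). Over all genes these settings called 8.87% and 8.3%. Without the postmortem atrial array, or without the living atrial one, none of the 10 was called.

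Endothelial markers were also low on the postmortem atrial array, which was the lowest CMP array for 6 of the 7, all but Kdr. Their mean log2 level was -2.31 there and -0.12 in postmortem ventricular CMPs, against 0.39 and -1.19 in living atrial and ventricular CMPs. Their summed linear level was 9.76 and 11.7 in postmortem atrial and ventricular CMPs, against 18.2 and 13.1 in living ones, with Kdr, a VEGF receptor that read 3.15 on the postmortem atrial array, carrying the sum there. Tek was not well above background on that array alone. In the test of dependence on chamber 5 of 7 endothelial markers were called, all positive, where 1.63% of all genes were called positive, with Emcn at 6.77 ± 0.77, Tie1 at 5.28 ± 0.75 and Esam at 4.90 ± 0.66. The part of these cells in the class I values was not tested.

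Ventricular against atrial CMPs gave no call either. The share called over all 18910 genes was 0.0%, with 0 called by limma at the adjusted threshold and 1560 at an unadjusted p under 0.05. Of the 10 genes 9 were higher and 1 lower, none with an unadjusted p under 0.05, and the median was 0.45 against 0.03 over all genes. Psmb8 differed by 0.85 ± 0.45, H2-K1 by 0.74 ± 0.37 and Nlrc5, measured on 1 of 2 atrial arrays, by 1.38 ± 0.77. Without the living atrial array, or without the living ventricular one, 4 genes were called higher, H2-K1, Psmb8, Psmb9 and Nlrc5, and all 4 had a low postmortem atrial value. Over all genes these settings called 8.96% and 7.56%.

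In neither contrast among CMPs was any gene of the other heavy chain, loading, proteasome, regulator or class II lists called by limma. An unadjusted p under 0.05 was found for 3 of 18, 1 of 10, 0 of 19, 2 of 24 and 2 of 4 of them in the postmortem contrast, and for 1 of 18, 0 of 10, 0 of 19, 2 of 24 and 2 of 4 between the chambers. The smallest p-values in the postmortem contrast belonged to H2-Q8 (-1.45 ± 0.31) and Cd1d1 (-1.39 ± 0.42) among the heavy chains, to Lap3 (0.55 ± 0.19) and Calr (-0.38 ± 0.20) among the loading partners, and to Psmb1 (0.36 ± 0.15) and Psma6 (0.34 ± 0.16) in the proteasome. Among regulators and class II genes they belonged to Irf1 (-0.72 ± 0.23), Ifnar2 (-0.50 ± 0.18), H2-Ab1 (-2.73 ± 0.71) and H2-DMb1 (-1.14 ± 0.33). Between the chambers they belonged to H2-Q8 (1.20 ± 0.31), H2-M3 (0.60 ± 0.28), Calr (0.44 ± 0.20), Lap3 (-0.36 ± 0.19), Psme3 (0.35 ± 0.18), Psma6 (-0.30 ± 0.16), Jak1 (0.46 ± 0.16), Jak2 (0.57 ± 0.20), H2-Ab1 (2.75 ± 0.71) and H2-Eb1 (1.13 ± 0.40).

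The 10 genes ran together over the 7 arrays to different degrees. Each profile was set against the mean profile of the 10, of which it is a part, and Pearson's r was 0.997 for H2-D1, 0.996 for Psmb8, 0.990 for H2-K1, 0.900 for Tap1 and 0.745 for Psmb10. Among 15925 other genes well above background on all arrays, the 8 most like that mean profile included Ggct, Parp14, Slc25a16, Sgcb, Cnr2, Tgtp2 and Arhgef12, with r of 0.989 to 0.995 over 7 arrays that share groups. Parp14 had levels of 1.51 and 3.30 in postmortem atrial and ventricular CMPs, 2.94 and 2.95 in living ones, 2.57 in adult heart and -1.70 and -1.24 in fetal heart. Tgtp2 had levels of 2.34 and 3.44 in postmortem CMPs, 3.29 and 3.25 in living ones, 3.79 in adult heart and -3.42 and -3.10 in fetal heart.

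Ordered by level, H2-K1 and Psmb8 had adult heart within the CMP range and fetal heart last. Their difference between CMPs and adult heart did not pass the test. B2m and Tap1 put CMPs first, adult heart next and fetal heart last, each step called. Psmb9 put adult heart first, CMPs next and fetal heart last, each step called. Tap2 and Tapbp had CMPs above adult heart without passing the test, and H2-D1, Psmb10 and Nlrc5 had adult heart above CMPs without passing it. The probes of H2-K1, H2-D1 and the other heavy chain genes may bind transcripts of related heavy chain genes, so their values may not be separate measurements. Class I alleles differ among mouse strains, and the strain of the adult heart RNA is not given. The part of either point in the heavy chain values was not tested.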

How the data were processed

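Total RNA of 4 CMP samples, 1 purchased adult heart RNA and 2 fetal heart samples was read on 7 single-colour arrays on 1 slide with 1 scan. The authors deposited scanner tables of spot intensity written by the Feature Extraction program of Agilent (10.7.3.1 in the headers and 9.5.3 in the submitters' processing notes), whose processed signal is background-subtracted and detrended per the file headers. They also deposited a table of log2 values, which equals the log2 processed signal minus a constant per array for nearly all probes; it was used as an alternative, with the steps behind it not given in the sources used here.

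From the 59305 spots per array, spots with an outlier flag were dropped, spots of 1 probe were averaged and 11 probes were left out. No spot was saturated. The working value was the log2 processed signal minus the 75th percentile of the array, and a gene was read from its probe of highest mean. limma 3.58.1 in R 4.3.3 (lmFit, eBayes with a trend) fitted all 7 arrays at once with CMP chamber as a covariate, leaving 2 residual degrees of freedom, or 1 with the interaction. Genes well above background on all arrays of at least 1 side were tested, two-sided, with Benjamini-Hochberg adjustment over all of them at 0.05. The steps were tested on simulated data.

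The 10 genes and the lists were chosen with earlier results of these data known. All 10 genes are named in each comparison. From each other list up to 3 called genes per direction with the largest difference are named, or the 2 with the smallest p where none was called. Exceptions are class II genes against fetal heart, given as counts, and the interaction, where only called genes of the lists are named. Psmb5, Psmb6 and Psmb7 are also named as counterparts, and the gene pair of Tap1 and Psmb9 was singled out after its values were seen. Of the 8 genes of most similar pattern, 1 is not reported here. Alternatives covered normalization, background, the filter on dim probes, the mean of probes, the prior, the groups fitted, the covariate, the deposited table and each array left out.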

Additional observations from a re-analysis of the deposited data

Results flagged for a closer look

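Among the 4 CMP arrays, the postmortem atrial value lay far from the other 3 for H2-K1 (3.93), H2-D1 (4.05) and Psmb8 (0.73), by Dixon's ratio for a lone low value (0.835, 0.940 and 0.968), which was above the critical value for 4 samples. Chance flags about 1 in 20 groups, and the share of all genes flagged on this array was not computed. The postmortem atrial array was the lowest CMP array for 32.5% of the 17514 genes well above background on all 4. The 3 genes ran together over the arrays, so their flags are not independent. The H2-K1 spots on that array had an SD of 0.07.

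The postmortem difference depended on chamber (ventricular pair minus atrial pair, limma interaction, adjusted p under 0.05) for Irf8 (2.51) and H2-Ab1 (-2.73), for the leukocyte marker Tyrobp (-3.05), for the endothelial markers Emcn (6.77), Tie1 (5.28), Esam (4.90), Cdh5 (4.03) and Tek (3.96), and for the cardiomyocyte marker Tnnt2 (2.69). None of the 10 class I genes was called in that test. With quantile normalization no gene was.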

How the results depend on the processing

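The counts of called class I genes against fetal heart kept within 8 to 10 for CMPs and for adult heart when each array was left out. Against adult heart the count of genes lower in CMPs was 1, and was 0 with only the compared groups fitted and 0 to 4 with arrays left out. There, leaving arrays out moved H2-K1 between -0.50 and 0.19 and Psmb8 between -0.85 and 0.054. For postmortem against living CMPs the count of lower class I genes was 0 to 3 with arrays left out, and B2m moved between -0.034 and 0.20, Tap1 between -0.015 and 0.78, Tapbp between -0.87 and 0.085, Psmb8 between -1.78 and 0.039, Psmb9 between -1.48 and 0.27, Psmb10 between -0.76 and 0.23 and Nlrc5 between -2.19 and 1.01.

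For ventricular against atrial CMPs the count of higher class I genes was 0 to 4, and H2-D1 moved between -0.053 and 0.93, B2m between -0.15 and 0.080, Tap1 between -0.26 and 0.53, Tap2 between -0.016 and 0.13, Tapbp between -0.35 and 0.60, Psmb8 between -0.058 and 1.76, Psmb9 between -0.31 and 1.45, Psmb10 between -0.032 and 0.96 and Nlrc5 between -0.22 and 2.97. With 1 CMP array left out these contrasts rest on 1 pair of arrays, which is how such a setting is built. Leaving out either array of the unused pair then gives the same value. The residual spread comes from the fetal pair alone, so the calls of these settings measure no spread between CMP arrays. In the interaction Psmb9 was 1.75, and -1.06 with the mean of its probes, whose second probe was well above background on 1 array.

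Over all genes, postmortem against living CMPs gave 20 calls, and 47 with normexp background correction, 53 without the filter on dim probes, 0 without a trend in the prior, 0 with only the compared groups, 2 without the chamber term and 0 to 1763 with arrays left out. Ventricular against atrial CMPs gave 0 calls, and 5 with normexp, 25 without the filter and 0 to 1796 with arrays left out. The interaction gave 458 calls, and 0 with quantile normalization and 112 without a trend. The cause was not tested. Quantile normalization moved the median of all genes by up to 0.48 on the log2 scale and normexp by up to 0.17. Keeping spots with an outlier flag, an alternative chosen after seeing the data, changed none of these counts by over 1.5 times.

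No paired analysis was possible because the replicate numbers name the chamber of the CMPs, which is already a term of the fit, and are only names in the hearts. The slide as a block was not run, since there was 1 slide and 1 scan. Without any CMP or fetal array, or with only the compared groups, the interaction had no residual degree of freedom and gave no value. With groups of 1 or 2 arrays, a gene that missed the threshold is not shown to be equal between groups. Dim probes such as Nlrc5 and Tap1 in fetal heart limit those values to bounds.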
